A study of Mus musculus with 2 samples.

Results

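The 10 genes of the elastic fibre, namely Eln, Fbn1, Fbn2, Mfap2, Mfap4, Mfap5, Fbln1, Fbln2, Fbln5 and Lox, were followed through the cell types of mouse dorsal skin in a model of androgenetic alopecia (AGA). They were chosen by symbol and not by their values, and all 10 were found among the 32285 genes of the count matrices. Shaved dorsal skin of 15 male C3H/HeN mice per group was pooled into 1 library, from mice 7 weeks old at the start and 9 weeks old at harvest. The control mice were given vehicle, and the AGA model was made by subcutaneous testosterone propionate (TP) at 0.5 mg daily. The TP + Ab group was not analysed here. Each group being 1 pooled library, a difference between TP and control has no replicate check, and no test was made. Intervals in parentheses are 95% intervals that cover counting error only.

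Elastic fibres give skin its recoil. They consist of a core of cross-linked elastin, secreted as soluble tropoelastin, inside a mantle of fibrillin microfibrils. Microfibril-associated proteins bind fibrillin, fibulins join elastin to the microfibrils and to cells, and lysyl oxidases cross-link elastin and collagen. In skin the fibres are made chiefly by dermal fibroblasts, while vessels and the connective tissue sheath of the hair follicle also carry them. The dermal papilla is the cluster of specialised mesenchymal cells at the base of the follicle.

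The kept cells numbered 39076 in control and 18542 in TP, with medians of 2053 and 4877.5 unique molecular identifiers (UMIs, each tagging 1 captured mRNA molecule) per cell. The libraries shared 303 cell barcodes, 186 of them among the kept cells. Cell classes carry the ending "-like" because clusters were named by marker scores, and neither the 10 genes nor 43 further genes of elastic fibre assembly and turnover entered the clustering. Of 32 clusters, 26 carried 15 cell classes and 6 stayed unnamed. Dermal fibroblast (DF)-like cells numbered 207 in control and 658 in TP (0.530% and 3.55% of cells), dermal papilla cell (DPC)-like cells 3940 and 1325 (10.1% and 7.15%) and dermal sheath cup-like cells 387 and 141 (0.990% and 0.760%). A level is the sum of a gene's UMIs in a class, scaled to 1000000 UMIs of all genes there (CPM), and levels were compared across classes or libraries. Where UMIs of a gene are set against those of another, the ratio is compared across classes only. Fewer cells of a type and less RNA per cell cannot be told apart in a value over all cells.

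In the RefSeq annotation of GRCm38.p6, Eln (ENSMUSG00000029675) lies at chr5:134702595-134747368, Fbn1 (ENSMUSG00000027204) at chr2:125300594-125506485, Mfap2 (ENSMUSG00000060572) at chr4:141010424-141015976, Mfap4 (ENSMUSG00000042436) at chr11:61485431-61488708 and Mfap5 (ENSMUSG00000030116) at chr6:122513584-122529290. The fibulin genes lie at chr15:85205949-85286294 for Fbln1 (ENSMUSG00000006369), chr6:91212460-91272540 for Fbln2 (ENSMUSG00000064080) and chr12:101746565-101819119 for Fbln5 (ENSMUSG00000021186). Upstream windows are shown for Fbn1 and Fbln1, since these genes were found in different tissue layers, Fbn1 mainly in mesenchymal cells and Fbln1 largely in keratinocytes. Each window holds 200 bases on the strand of the gene and outside its annotated span, from 250 to 51 bases before the start of an entry in RefSeq's promoter table, the point from which distances are counted here. For Fbln1 that start is the first base of the gene as annotated, while for Fbn1 it lies 47 bases inside the gene, so its window covers the 4th to the 203rd base upstream of the annotated gene. The Fbn1 window is chr2:125506489-125506688 on the minus strand (58% G or C) and the Fbln1 window is chr15:85205699-85205898 on the plus strand (42%).
Fbn1: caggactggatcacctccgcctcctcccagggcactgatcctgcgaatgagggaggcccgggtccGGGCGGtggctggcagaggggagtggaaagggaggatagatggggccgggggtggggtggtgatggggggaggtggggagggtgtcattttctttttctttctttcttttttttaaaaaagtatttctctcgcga
Fbln1: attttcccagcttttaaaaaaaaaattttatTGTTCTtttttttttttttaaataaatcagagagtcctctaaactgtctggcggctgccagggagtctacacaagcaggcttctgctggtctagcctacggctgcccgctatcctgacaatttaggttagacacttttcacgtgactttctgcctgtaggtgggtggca
Capitals mark matches to 2 motifs searched on both strands, the GC box GGGCGG and the androgen receptor half-site AGAACA, whose reverse complement is TGTTCT. The Fbn1 window held 1 GC box, 185 bases before the start of its entry, and no half-site, and the Fbln1 window held 1 half-site, 219 bases before the start of its entry, and no GC box. Fbln1 had 2 entries, of which the one farthest upstream is shown, and the window of the other held neither motif. Of all 32851 RefSeq windows of this length, 24.6% held a GC box and 13.2% a half-site, so both matches are common ones and describe letters only.

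Transcripts of 9 of the 10 genes came mainly from mesenchymal cells in both libraries, as the map of levels by cell class shows. DF-like, DPC-like and dermal sheath cup-like cells together held between 72.1% (Eln) and 93.4% (Fbn1) of a gene's UMIs in control, and between 78.1% (Eln) and 95.6% (Mfap5) in TP. Fbln1 was the exception, with 11.2% of its UMIs in these classes in control and 30.1% in TP.

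**Figure D1:**
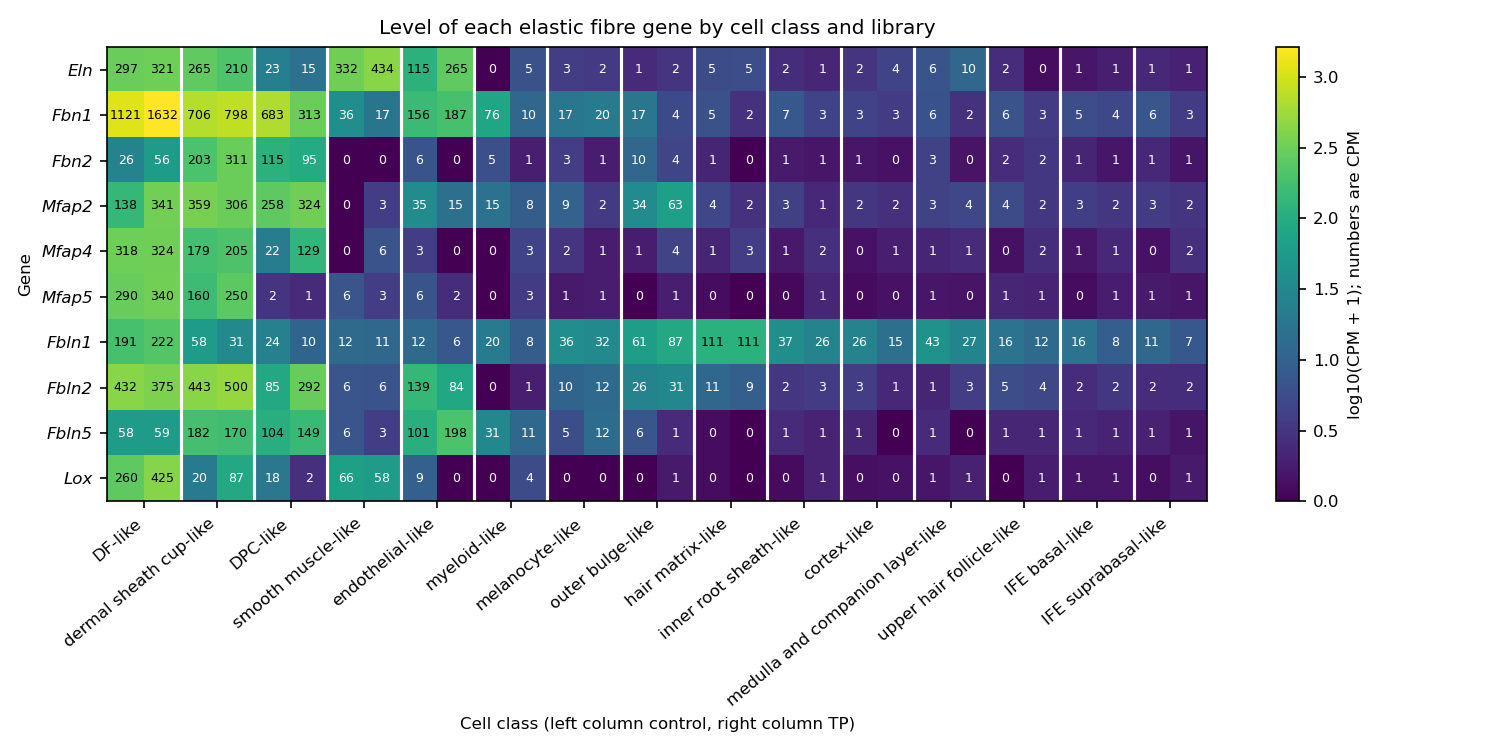
Level of each elastic fibre gene (rows) in each named cell class (columns) of the control and TP libraries, coloured by log10(CPM + 1) and printed as CPM, with control on the left and TP on the right of each class. Colour is strong in the DF-like and dermal sheath cup-like columns for most genes, in DPC-like cells for Fbn1, Fbn2, Mfap2, Fbln2 and Fbln5 but not Mfap5, in smooth muscle-like and endothelial-like cells for Eln, and in the keratinocyte-like columns for Fbln1.

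Eln, which encodes tropoelastin, was present at 332 CPM in smooth muscle-like cells, 297 CPM in DF-like cells and 265 CPM in dermal sheath cup-like cells of the control, and these 3 levels had overlapping intervals. Of the 207 DF-like cells of the control, 99 were Schwann-like. Without these and an unnamed subcluster, the DF-like level of Eln lay above the sheath cup in control, as given below. Its control level was 115 CPM in endothelial-like and 23.1 CPM in DPC-like cells. In TP the order was smooth muscle-like (434 CPM), DF-like (321 CPM), endothelial-like (264.5 CPM) and dermal sheath cup-like cells (210.3 CPM). The interval in endothelial-like cells overlapped with those in DF-like and in sheath cup-like cells. The papilla thus lay far below the other mesenchymal classes for elastin in control. Of the UMIs of Eln and Fbn1 together, Eln made up 3.27% in DPC-like cells of the control, 20.9% in DF-like, 27.3% in sheath cup-like, 42.6% in endothelial-like and 90.2% in smooth muscle-like cells. In TP these shares were 4.72%, 16.4%, 20.8%, 58.6% and 96.3%, in the same order of classes. These are ratios of transcripts counted at their ends and not of protein.

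The fibrillins form the microfibrils on which elastin is deposited. Fbn1, the main fibrillin of adult tissue, stood at 1121 CPM in DF-like, 706 CPM in dermal sheath cup-like and 683 CPM in DPC-like cells of the control. In TP it stood at 1632, 798 and 312.5 CPM, so the papilla moved from beside the sheath cup to well below it. Fbn2 (ENSMUSG00000024598), the fibrillin best known from developing tissue, had another order, with 203 CPM in dermal sheath cup-like, 115 CPM in DPC-like and 26.2 CPM in DF-like cells of the control. The order was the same in TP, with 311.5, 94.5 and 56.5 CPM. Fbn2 had no UMI in smooth muscle-like cells of either library.

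Among the microfibril-associated genes of the control, Mfap4 and Mfap5 were highest in DF-like cells and Mfap2 was highest in dermal sheath cup-like cells. Mfap2, whose product binds fibrillin and growth factors of the TGF-β family, stood at 359 CPM in dermal sheath cup-like, 258 CPM in DPC-like and 138 CPM in DF-like cells of the control. In TP its levels in these classes were 306, 324 and 341 CPM, with overlapping intervals. Mfap4, which binds tropoelastin and fibrillin, stood at 318 CPM in DF-like cells of the control and at 179 and 22.2 CPM in the sheath cup and papilla. Mfap5 stood at 290 CPM in DF-like and 160 CPM in dermal sheath cup-like cells of the control and at 2.07 CPM in DPC-like cells, where 24 UMIs were counted in 3940 cells.

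The 3 fibulins differed from each other in where they were found. Fbln2, found in basement membranes and elastic fibres, was highest in dermal sheath cup-like (443 CPM) and DF-like cells (432 CPM) of the control, with overlapping intervals. Without the Schwann-like and unnamed subclusters described below, the DF-like level of Fbln2 lay above the sheath cup in control. In TP the sheath cup (499.7 CPM) lay above DF-like (375 CPM) and DPC-like cells (292.5 CPM). Fbln5, which brings tropoelastin to microfibrils, was highest in dermal sheath cup-like cells (182 CPM), followed by DPC-like (104 CPM) and endothelial-like cells (101 CPM) whose intervals overlapped, and lay at 57.9 CPM in DF-like cells. In TP endothelial-like cells had 198 CPM of Fbln5, dermal sheath cup-like 170.02 CPM and DPC-like 149.5 CPM, each overlapping with the next. Lox (ENSMUSG00000024529), the lysyl oxidase that starts cross-linking, was highest in DF-like cells in both libraries, at 260 CPM in control and 425 CPM in TP.

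Over all cells, the TP library held more Eln, Mfap4, Mfap5, Fbln2 and Lox transcripts per UMI than control and about as many of Fbn1 and Fbln5, whose small differences changed sign with TMM scaling. Lox stood at 3.90 CPM in control (415 UMIs) and 17.5 CPM in TP (2339 UMIs), 4.50-fold (4.05 to 5.00). Mfap5 stood at 3.83 and 15.1 CPM, 3.94-fold (3.54 to 4.39), and Mfap4 at 6.58 and 24.4 CPM, 3.70-fold (3.41 to 4.02). Fbln2 stood at 19.5 and 40.6 CPM, 2.08-fold (1.98 to 2.19), and Eln at 9.55 and 18.3 CPM, 1.92-fold (1.78 to 2.07). The other 5 genes had ratios between 0.660 (Fbn2, 16.1 and 10.6 CPM) and 1.17 (Mfap2, 36.2 and 42.2 CPM). A difference of 2-fold or more toward TP was thus seen for 4 of the 10 genes, against a background of 7.79% of 17559 genes with at least 50 UMIs, and none was at least 2-fold lower, against 10.7%. With TMM scaling 5 genes were higher, Eln being the added one, and the background was 11.1% higher and 6.12% lower. The median log2 ratio of the 10 genes was 0.58, beside -0.24 over all genes tested. Col1a1, the main fibrillar collagen of dermis, was 8.85-fold, Col3a1 4.91-fold and the small proteoglycan Dcn 2.72-fold their control level.

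These whole-library ratios moved with the shares of the clusters. When every cluster was given its control share of UMIs in both libraries, Lox went from 4.50-fold to 1.13-fold, Mfap5 from 3.94-fold to 1.38-fold and Eln from 1.92-fold to 1.04-fold. Mfap4 kept 2.17-fold and Fbln2 1.79-fold, and Fbn1 was at 0.708-fold. With the TP shares in both libraries the ratios were 1.57 for Lox, 1.21 for Mfap5, 1.03 for Eln, 1.46 for Mfap4, 1.32 for Fbln2 and 0.952 for Fbn1. Of the dermal reference genes, Col1a1 went from 8.85-fold to 2.11-fold at the control shares. Only Mfap4 of the 10 genes stayed at least 2-fold higher at the control shares, and none did at the TP shares, where 3.26% and 2.93% of all genes did.

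**Figure D2:**
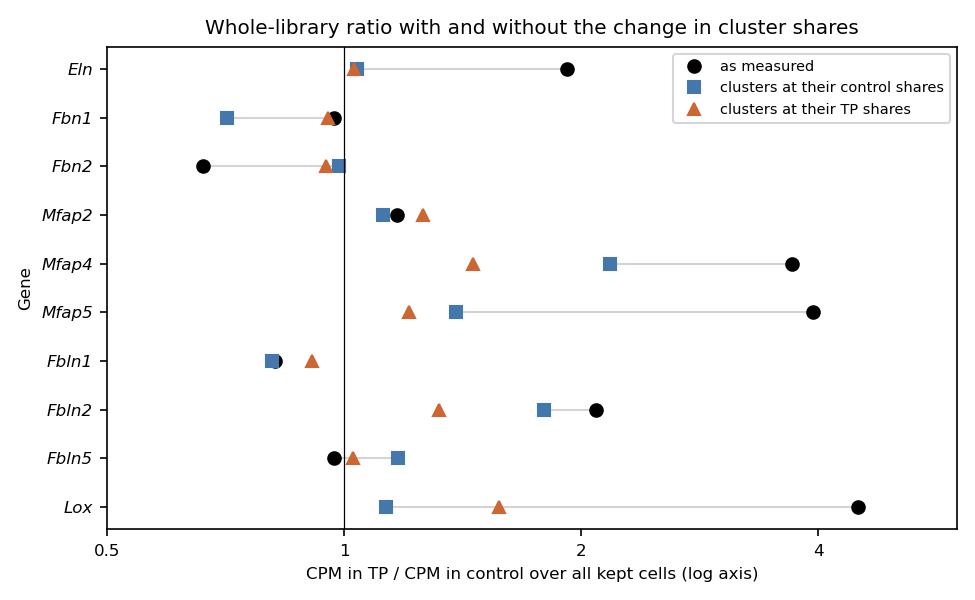
Ratio of TP over control (log axis) in CPM over all kept cells for each elastic fibre gene, as measured (circles) and with every cluster given its control share (squares) or its TP share of UMIs (triangles). At control shares Eln moves to 1.04, Lox to 1.13 and Mfap5 to 1.38, and Mfap4 stays above 2.

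The class that supplied the transcripts differed between the libraries. DF-like cells held 6.01% of the Fbn1 UMIs of the control library and 67.8% of those of the TP library, and DPC-like cells 79.1% and 21.3%. For Lox, DF-like cells held 33.5% and 91.6%, and for Eln 15.6% and 66.3%. For Mfap5 they held 38.1% and 85.4%, while dermal sheath cup-like cells went from 45.7% to 9.61%. Most Fbln5 UMIs lay in DPC-like cells in both libraries (74.3% and 62.8%), and Fbln2 had 47.7% and 44.7% there. By level, Fbln5 in control was higher in dermal sheath cup-like cells, as given above.

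Within DF-like cells the levels of most elastic fibre genes lay close to each other in control and TP. Eln was counted 159 times in control and 1621 times in TP, which gave 297 and 321 CPM, a ratio of 1.08 (0.918 to 1.28). Mfap4 (318 and 324 CPM), Mfap5 (290 and 340 CPM), Fbln1 (191 and 222 CPM) and Fbln5 (57.9 and 59.1 CPM) had ratios between 1.02 and 1.17. Fbln2 was slightly lower, with 432 and 375 CPM, a ratio of 0.868 (0.757 to 0.999) that changed sign on the log2 scale with TMM scaling. Higher in TP were Mfap2 (138 and 341 CPM, 2.47-fold, 1.95 to 3.16), Fbn2 (26.2 and 56.5 CPM, 2.16-fold, 1.27 to 4.0), Lox (260 and 425 CPM, 1.63-fold, 1.38 to 1.95) and Fbn1 (1121 and 1632 CPM, 1.46-fold, 1.34 to 1.58). Fbn2 and Mfap2 were at least 2-fold higher, 2 of 10 against a background of 3.26% of 9265 genes, and none was at least 2-fold lower, against 11%. With TMM scaling 3 genes were higher, Lox being the added one, and the background was 7.52% higher and 3.97% lower. Their median log2 ratio was 0.21, beside -0.30 over all genes tested.

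The DF-like cells were not the same mixture in both libraries. A subcluster led by Nkain2 and Slc35f1 carried Schwann cell markers and contained 99 of 207 cells in control and 86 of 658 in TP, and an unnamed one led by Chodl and Pax7, genes of muscle progenitors, held 18 and 19. The summed level of the fibroblast marker list was 46863 and 80155 CPM in control and TP, that of the inner root sheath list 2186 and 299.7 CPM (all 5 markers detected), and that of the Schwann list 259.8 and 115 CPM. The lists of suprabasal epidermis (1844 and 2400 CPM) and basal epidermis (1964 and 2721 CPM) were higher in TP. Their part in the result was not tested. Without those 2 subclusters, 90 control and 553 TP cells were left and no elastic fibre gene was 2-fold apart in either direction (background 3.58% higher and 6.95% lower of 8706 genes). The inner root sheath list was then 1249.9 and 238 CPM, the Schwann list 67.1 and 23.8 CPM and the list of suprabasal epidermis 1329 and 2268 CPM. In these cells Mfap2 stayed higher, at 198 and 357.5 CPM, 1.80-fold (1.41 to 2.35), and Fbn1 slightly higher, at 1506 and 1688 CPM, 1.12-fold (1.02 to 1.23). Fbln2 was lower, at 655 and 390.3 CPM, 0.595-fold (0.517 to 0.689), as was Mfap4, at 509 and 342 CPM, 0.671-fold (0.572 to 0.792), and Eln, at 412 and 341 CPM, 0.828-fold (0.694 to 0.994), which was 0.978-fold (0.820 to 1.17) with TMM scaling. With that scaling Mfap2 was 2.13-fold (1.66 to 2.77), Fbn1 1.32-fold (1.21 to 1.45) and Lox 1.35-fold (1.13 to 1.62). Lox was at 390.2 and 444.5 CPM, a ratio of 1.14 (0.953 to 1.37). A stricter removal of doublets, 15% of barcodes in place of 7.5%, left 7 of these 90 cells in control and 376 of 553 in TP, and 84 of 207 and 461 of 658 DF-like cells. With it, 8 of the 10 genes lay 2-fold or more above control in DF-like cells, and the share of all genes was 9.21% above and 29.4% below of 7830. The fibroblast subclusters then made up 7 of 84 control and 376 of 461 TP cells. The 8 genes thus compare mainly Schwann-like and unnamed control cells with TP fibroblasts, and no rise within fibroblasts is read from them. The level of the control fibroblasts therefore rests on few cells that lie close to simulated doublets.

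The 5 fibroblast subclusters differed from each other in which elastic fibre genes they carried. The subcluster led by Angptl7 and Sfrp4 (18 control and 66 TP cells) had Mfap4 at 1546 and 1456 CPM, Lox at 888 and 896 CPM and Fbln1 at 765 and 801 CPM. For Fbln1 the next highest subcluster, led by Agt and Gdf10, had 271 and 288 CPM. Eln was at 628 and 894 CPM in the Angptl7-led cells and at 1819 and 715 CPM in those led by Igfbp2 and Gpha2 (7 and 74 cells). The Igfbp2-led cells had the DPC marker Corin (175 CPM) among their leading 10 genes. All 5 subclusters carried the 6 DF markers, and none had a DF marker among its leading 10 genes, which were ranked against the other DF-like cells. The largest subcluster, led by Cthrc1 and Ctla2a (42 and 254 cells), had Eln at 189.7 and 202 CPM, Lox at 337 and 565 CPM and Mfap2 at 245 and 458 CPM. Cells led by Sema3e and Smpd3 (4 and 61 cells) had high Fbn1, at 3917 and 3222 CPM, and high Mfap5, at 1022 and 1277 CPM. The same cells had little Mfap4, with no UMI in control and 9.39 CPM in TP, and Fbln1 at 37.5 CPM in TP.

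**Figure D3:**
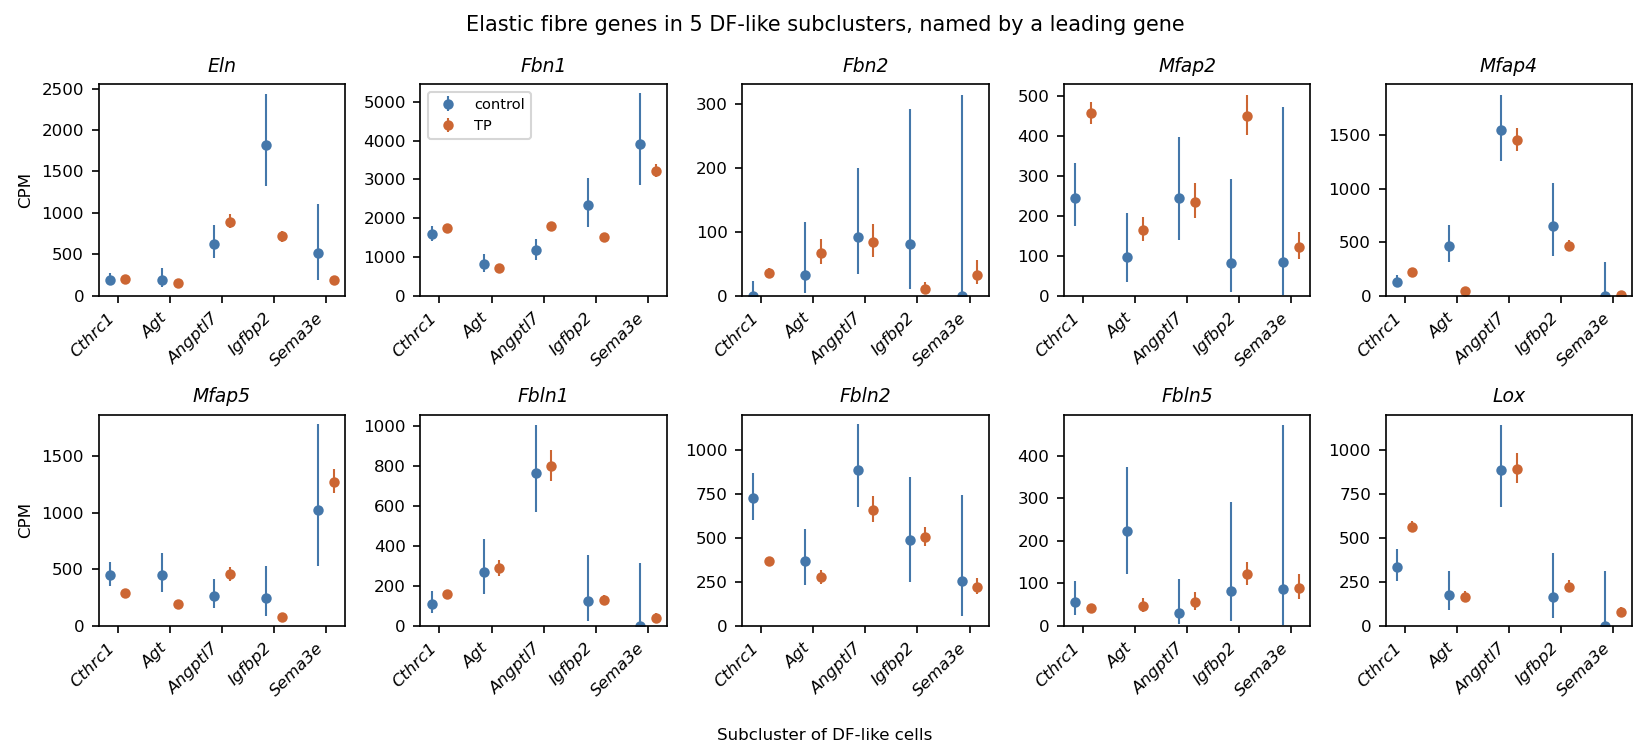
Level (CPM, with 95% Poisson interval) of the 10 elastic fibre genes in the 5 fibroblast subclusters of the DF-like cells, in control and TP. Mfap4, Fbln1 and Lox peak in the Angptl7-led subcluster in both libraries, and Fbn1 and Mfap5 in the Sema3e-led one, which holds 4 control cells.

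Between libraries Mfap4 differed in the Agt-led cells (19 control and 98 TP cells), where 29 control and 32 TP UMIs gave 462 and 44.3 CPM, a ratio of 0.0959 (0.0562 to 0.164). In the same cells Mfap5 stood at 446 and 189.5 CPM, a ratio of 0.425 (0.282 to 0.663), and Fbln5 at 223 and 45.7 CPM, a ratio of 0.205 (0.107 to 0.414). The 19 control cells belong to the 90 of which the stricter doublet removal left 7. No share of all genes is given for so few cells. Mfap4 showed no such difference in the Angptl7-led cells, with a ratio of 0.942 (0.764 to 1.17), and in the Cthrc1-led cells it was higher, at 129 and 219 CPM (21 and 517 UMIs), a ratio of 1.70 (1.10 to 2.77). In the Schwann-like subcluster Fbn2 went from 16 CPM (3 UMIs) to 299 CPM (92 UMIs), and this subcluster held 92 of the 285 Fbn2 UMIs of the DF-like cells in TP. Mfap5 (102 and 224 CPM, 2.21-fold), Fbln2 (85.5 and 179 CPM, 2.09-fold) and Lox (58.8 and 169 CPM, 2.87-fold) were also higher there. These had 19, 16 and 11 UMIs in control. Like Fbn2 they reached 50 UMIs only through TP, so they are not counted against the share of all genes. Eln alone of the 10 genes was lower, at 128 and 61.7 CPM (24 and 19 UMIs), with overlapping intervals. Of the dermal reference genes, Col1a1 (5967 and 8715 CPM), Col3a1 (5496 and 7819 CPM) and Dcn (2171 and 3817 CPM) were higher in these cells too. Fbn2 in the 5 fibroblast subclusters together was at 30.5 and 41.05 CPM, with overlapping intervals.

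In DPC-like cells the elastic fibre genes differed between the libraries in both directions. Fbn1 was counted 7902 times in control and 2586 times in TP, 683 and 312.5 CPM, 0.458-fold (0.438 to 0.479). Lox was counted 208 and 15 times, 18.0 and 1.81 CPM, 0.101-fold (0.0554 to 0.170). The TP level of Lox was close to that in TP inner root sheath-like cells (1.10 CPM, 0.528 to 2.02), so the size of this ratio is limited by background. In the other direction, Mfap4 was counted 257 and 1064 times, 22.2 and 129 CPM, 5.79-fold (5.05 to 6.66), and Fbln2 989 and 2420 times, 85.5 and 292.5 CPM, 3.42-fold (3.18 to 3.69). Smaller were the differences of Fbln5 (104 and 149.5 CPM, 1.44-fold), Mfap2 (258 and 324 CPM, 1.26-fold), Fbn2 (115 and 94.5 CPM, 0.819-fold) and Eln (23.1 and 15.5 CPM, 0.670-fold). Fbln1 was at 24.0 and 9.79 CPM, below its level in inner root sheath-like cells (37.1 and 26.0 CPM), a class that itself carries Fbln1, so no direction is read from it. Of the 9 genes with at least 50 UMIs, 2 were at least 2-fold higher (background 3.99% of 12823 genes). Fbn1 and the low level of Fbln1 were at least 2-fold lower (background 8.38%). Lox was past 2-fold lower too, but it reached 50 UMIs only through control, so it is not counted against that share. The directions of Fbn1, Lox, Mfap4 and Fbln2 were the same under every setting run, and among the summed markers of other types the inner root sheath list was at 1900.3 and 354 CPM in control and TP. The dermal sheath cup list, whose cells carry more Mfap4 and Fbln2, was at 2187 and 3169 CPM, the list of suprabasal epidermis at 1524 and 2743 CPM, the DF list at 912 and 1181 CPM and the DPC list itself at 7751 and 5533 CPM. Their part in the result was not tested.

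**Figure D4:**
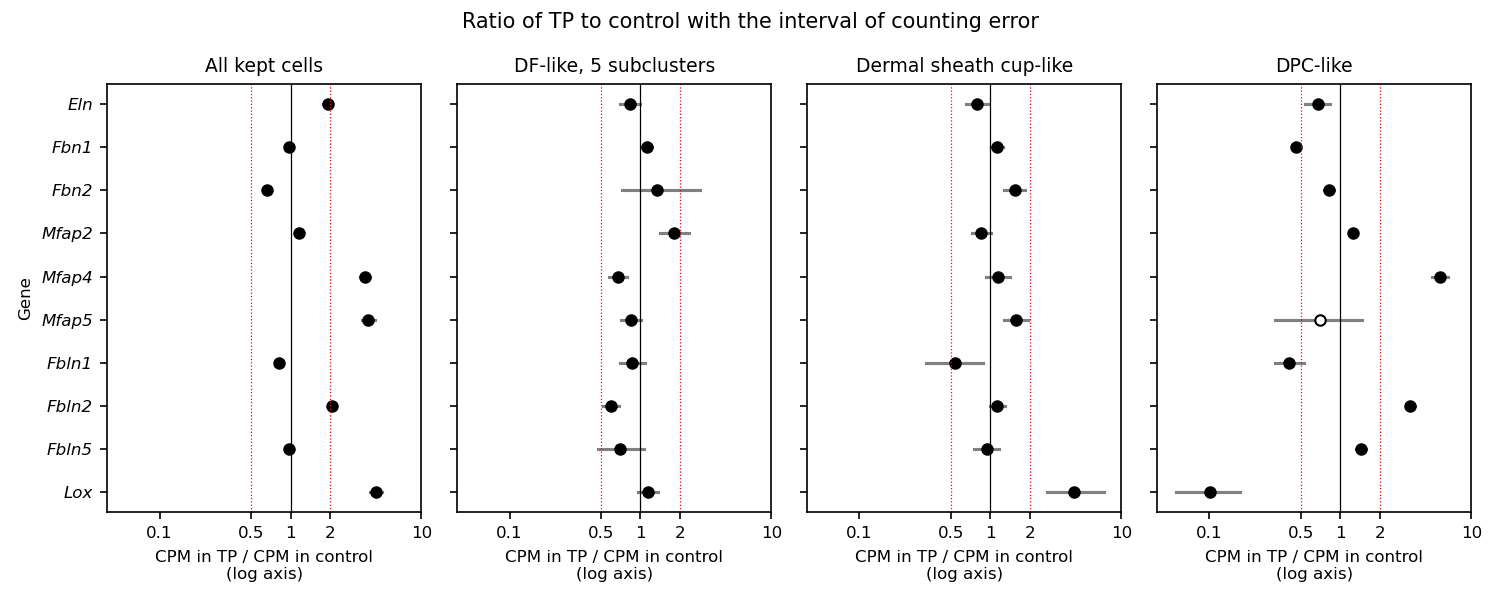
Ratio of TP over control (log axis, with 95% interval from counting) for each elastic fibre gene over all kept cells and within the 5 fibroblast subclusters, dermal sheath cup-like cells and DPC-like cells, with dotted lines at 0.5 and 2 and an open point for Mfap5 in DPC-like cells, which had under 50 UMIs. In DPC-like cells Mfap4 and Fbln2 lie above 2 and Fbn1 and Lox below 0.5, while Lox lies above 2 in dermal sheath cup-like cells.

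The DPC-like class was made of 2 clusters whose proportions differed between the libraries, 1 led by Ndnf (2375 control and 339 TP cells) and 1 led by a and Adgrb3 (1565 and 986 cells). The gene a encodes agouti, a signal to melanocytes that papilla cells secrete. Fbn1 was at 739.8 and 570.1 CPM in the Ndnf-led cells (0.771-fold) and at 625 and 263 CPM in the Adgrb3-led cells (0.421-fold). Mfap4 was at 5.83 and 16.5 CPM in the former (34 and 22 UMIs) and at 38.8 and 150.2 CPM in the latter, and Fbln2 at 56.1 and 121 CPM and at 115 and 325.5 CPM. Lox went from 26.4 to 5.99 CPM and from 9.41 to 1.01 CPM. For these 4 genes both clusters therefore showed the direction of the whole class. Fbln5 did not, with 43.7 and 103 CPM in the Ndnf-led cells (2.35-fold) against 165 and 158.5 CPM in the others (0.959-fold), and Eln was at 18.7 and 24.7 CPM (1.32-fold) against 27.5 and 13.7 CPM (0.497-fold). Mfap2 was at 161 and 244 CPM in the Ndnf-led cells and at 356 and 340 CPM, with overlapping intervals, in the Adgrb3-led cells. Fbn2 was at 119 and 122 CPM in the former and at 111 and 89.2 CPM in the latter. An unnamed cluster led by Dkk2 and Gpc5, with 16 control and 273 TP cells, also carried these genes, with Mfap4 at 213 CPM, Fbn1 at 207 CPM, Fbln2 at 173 CPM and Mfap2 at 168 CPM in TP.

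**Figure D5:**
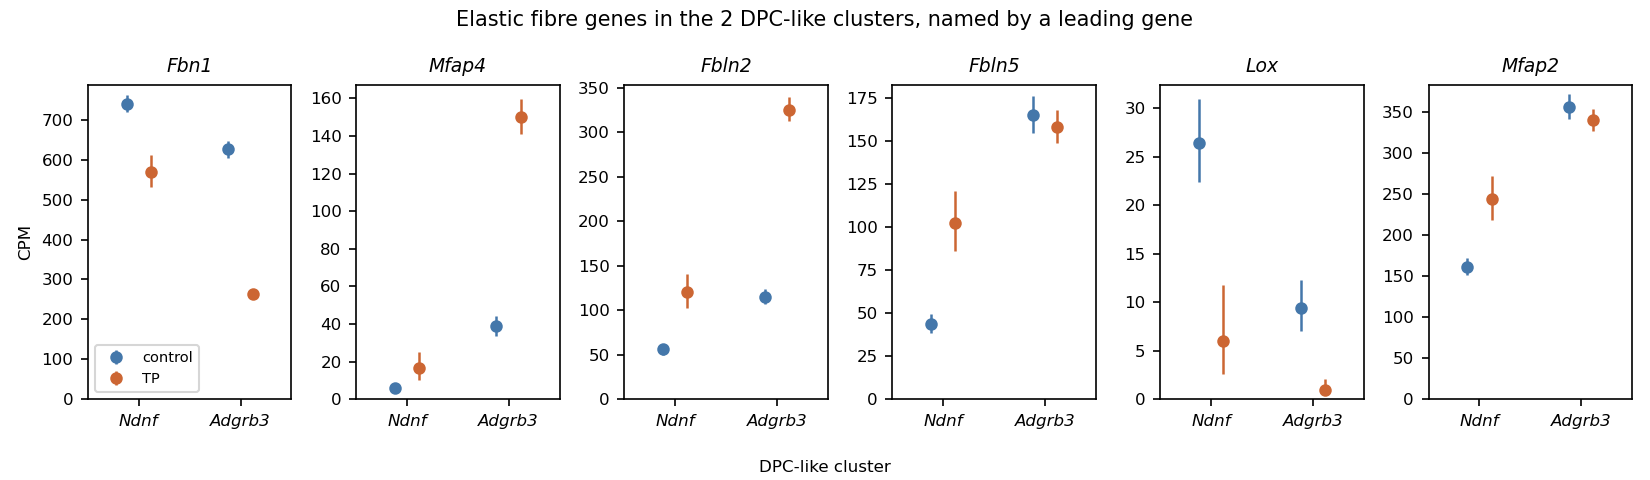
Level (CPM, with 95% Poisson interval) of 6 elastic fibre genes in the 2 DPC-like clusters, led by Ndnf and by Adgrb3, in control and TP. Fbn1 is lower and Mfap4 and Fbln2 are higher in TP in both clusters.

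The share of papilla cells that carried Fbn1, Mfap4, Fbln2 and Lox was drawn from the same UMIs as their levels, so it is no separate support. No share of all genes was computed for it. After each cell was thinned to 1000 UMIs, the share of DPC-like cells with a Fbn1 UMI was 45.9% in control and 24.96% in TP, of 3581 and 1226 cells. Cells below this depth, 359 in control and 99 in TP, were left out. The share with a Mfap4 UMI was 1.54% and 10.4%, and that with a Fbln2 UMI 6.56% and 20.3%. The share with a Lox UMI was 1.70% and 0.163%. In inner root sheath-like cells, which should lack these transcripts, the shares were 0.766% and 0.451% for Fbn1, 0.0725% and 0.15% for Mfap4, and 0.197% and 0.225% for Fbln2. For Lox they were 0.0207% and 0 of 1331 cells, which allows up to 0.225%, so the TP share in DPC-like cells was not above background. A UMI of any of the 10 genes was found in 67.8% and 67.7% of DPC-like cells and in 70.1% and 84.4% of DF-like cells. In inner root sheath-like cells the share was 5.80% and 4.81%, which is not background alone, since this class itself carries Fbln1 (916 and 236 UMIs). Without the Schwann-like and unnamed subclusters the DF-like shares were 86.7% (77.9 to 92.9) and 90.6% (87.8 to 92.9), with overlapping intervals.

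Dermal sheath cup-like cells, the contractile cells around the follicle base, differed between the libraries for some of the genes. Lox was furthest apart, with 23 UMIs in control and 67 in TP, 19.8 and 87.0 CPM, 4.38-fold (2.69 to 7.38). It was the only 1 of the 10 genes at least 2-fold higher there (background 4.06% of 6682 genes), and none was at least 2-fold lower (background 6.81%). In the same cells Col1a1 was at 1944 and 7251 CPM, 3.73-fold, Col3a1 at 1809 and 3062 CPM and Dcn at 139 and 389 CPM. The part of fibroblast transcripts in the Lox difference was not tested. Mfap5 (160 and 250.5 CPM, 1.56-fold, 1.27 to 1.92) and Fbn2 (203 and 311.5 CPM, 1.54-fold, 1.28 to 1.85) were also higher, while Eln was at 265 and 210.3 CPM, 0.794-fold. Fbln1 was at 57.8 and 31.1 CPM (67 and 24 UMIs), 0.539-fold (0.323 to 0.871).

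Smooth muscle-like and endothelial-like cells were small classes that carried Eln. The marker scores of the former were close for smooth and skeletal muscle (4.76 and 4.83), and whether its cells lie in vessels was not tested. Smooth muscle-like cells (63 in control and 83 in TP) held 55 and 156 Eln UMIs, 332 and 434 CPM, a ratio of 1.31 (0.956 to 1.81), and 6 Fbn1 UMIs in each library. Endothelial-like cells (129 and 192) held 40 and 164 Eln UMIs, 115 and 264.5 CPM, 2.29-fold (1.61 to 3.32). Eln was the only 1 of the 4 genes with at least 50 UMIs that was 2-fold higher there. It reached 50 UMIs only through TP, so it is not set against the share of all genes (3.74% of 4144). Fbln5 in endothelial-like cells was at 101 and 198 CPM, 1.96-fold (1.34 to 2.95), and Fbln2 at 139 and 83.9 CPM, 0.605-fold (0.401 to 0.916). The stricter doublet removal left 86 and 70 endothelial-like cells, and 37 and 20 smooth muscle-like cells.

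Fbln1, a fibulin of basement membranes and elastic fibres, was the 1 gene of the group with a large epithelial share. Keratinocyte-like classes held 52.9% of its UMIs in control and 42.3% in TP, and unnamed clusters 34.3% and 26.2%. Its level in hair matrix-like cells was 111 CPM in both libraries, a ratio of 1.00 (0.804 to 1.23), and in outer bulge-like cells it was 60.7 and 86.6 CPM, 1.43-fold. DF-like cells were higher, at 191 and 222 CPM. Per 1000 UMIs of Col1a1 in the same class, Fbln1 had 11.4 and 7.67 UMIs in DF-like cells but 5457 and 2167 in hair matrix-like and 4765 and 1418 in outer bulge-like cells, where Col1a1 itself had few UMIs (70 and 54 in hair matrix-like, 17 and 505 in outer bulge-like cells). Mfap2 was also found in outer bulge-like cells, at 34.5 CPM in control (46 UMIs) and 63.4 CPM in TP (524 UMIs), 1.84-fold.

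Of the 43 further genes of elastic fibre assembly, lysyl oxidase activation, elastin breakdown and cell binding, 39 had at least 50 UMIs over all cells. In TP, 8 of these lay 2-fold or more above control and none 2-fold below (background 10.7%). Mmp12 and Adamtsl2 among the 8 reached 50 UMIs only through TP, so the 8 are not set against the share of all genes higher (7.79%). These 8 were Adamtsl2 and Adamtsl4 of 18 assembly genes, Pcolce2 of 5 activation genes, Mmp2, Mmp12, Ctss and Ctsk of 6 breakdown genes, and Itgb6 of 10 receptor genes. Among them Pcolce2, an enhancer of procollagen processing, stood at 2.80 and 27.4 CPM, 9.79-fold, and the protease Ctsk at 17.6 and 67.7 CPM, 3.84-fold. Mmp2, a gelatinase, stood at 19.8 and 50.4 CPM, 2.54-fold, and the cysteine protease Ctss at 3.83 and 18.2 CPM, 4.77-fold. Mmp12, the macrophage elastase, was counted 12 and 57 times and Adamtsl2 19 and 76 times. Itgb6, an integrin chain of epithelium, stood at 8.83 and 20.1 CPM, 2.28-fold.

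In DF-like cells 4 of 34 of these genes lay 2-fold or more above control (Loxl4, Adamtsl4, Ctsk and Itgb3) and 2 below (background 11%, for Adamts10 and Adamtsl2). Of the 4, Loxl4, Adamtsl4 and Itgb3 reached 50 UMIs only through TP. Only Ctsk is therefore set against the background of 3.26% of all genes. Ctsk was the best counted of them, at 473 and 1499 CPM, 3.17-fold (2.80 to 3.61), and stayed 2.19-fold in the 5 fibroblast subclusters (722.5 and 1583 CPM). In those subclusters 2 of 33 genes, Loxl4 and Ctsk, lay 2-fold or more above control. Loxl4 reached 50 UMIs only through TP, so only Ctsk is set against the background of 3.58%. Below control by 2-fold or more were 5 (background 6.95%), Adamts10, Adamtsl2, Fbln7, Ltbp3 and Ltbp4, the last 3 named after their values were seen. Itgb3 was at 20.6 and 50.7 CPM, 2.47-fold, and Adamts10 at 74.8 and 32.1 CPM, 0.430-fold. The counts were low for Loxl4 (1 and 83 UMIs), Adamtsl4 (7 and 155) and Adamtsl2 (10 and 50). Of the assembly genes with the most UMIs in these cells, Efemp1 was at 175.7 and 302 CPM, Loxl2 at 131 and 264 CPM and Ltbp1 at 192.5 and 234 CPM. Of the activators, Pcolce was at 829.7 and 1072 CPM, Pcolce2 at 357 and 634 CPM, and Bmp1, the protease that releases active lysyl oxidase, at 151 and 214 CPM. Of the breakdown genes, Ctsl was at 671 and 973 CPM and Mmp2 at 564 and 852 CPM, and of the receptors Itgb1 was at 258 and 312 CPM, Itgb5 at 138 and 125 CPM and Itgav at 84.1 and 90.4 CPM. Mmp12 had no UMI in DF-like cells of either library. In DPC-like cells none of 32 genes was 2-fold apart in either direction, against 3.99% of all genes higher and 8.38% lower.

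Genes whose pattern over cell types was most like that of each elastic fibre gene were found by Pearson correlation of log2(CPM + 1) over 30 points, 15 classes in both libraries. The points share library, depth and cells, and the values are a description only. Eln was nearest to Lims2 (0.918), Pdgfrb (0.915) and Ecm2 (0.913), Pdgfrb being the PDGF receptor of mural cells and fibroblasts. Fbn1 was nearest to Bicc1 (0.960), Fkbp10 (0.956) and Fbln5 (0.941), and Fbln5 to Prex2 (0.948), Fbn1 (0.941) and Glis3 (0.932). Fbn2 was nearest to Cdh11 (0.948), Svep1 (0.94) and Ajap1 (0.936), and Mfap2 to Fbn2 (0.928), Col14a1 (0.911) and Lpar1 (0.909). Among the genes nearest to Mfap4 were Lrrc17 (0.956) and Tspan11 (0.952), and Mfap5 was nearest to Ccdc80 (0.94), Col1a1 (0.934) and Srpx2 (0.933). Fbln2 was nearest to Fkbp7 (0.923), Itm2a (0.907) and Arsj (0.906), and Lox to C1rb (0.956), Podn (0.945) and Emx2 (0.939). The nearest to Fbln1 were Dcn (0.823), Sdk1 (0.810) and Naaladl2 (0.799), lower values than for the other 9 genes.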

How the data were processed

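Dorsal skin cells of the control and TP libraries were analysed. The authors ran Cell Ranger 8.0.1 on the mm10 genome, and the deposited values are whole-number UMI counts per gene and barcode, not normalized. Reads come from the polyadenylated end of a transcript, so counts do not scale with gene length. As in the study's methods, barcodes outside 200 to 8000 genes or above 10% mitochondrial counts were dropped. This left 42244 of 45709 control barcodes (130999979 UMIs before any limit) and 20045 of 25931 TP barcodes (166929585 UMIs). Doublets were called by a rewritten version of the DoubletFinder steps (25% artificial doublets, 30 components, neighbours among 1% of the merged data), and the 7.5% of barcodes closest to artificial ones were removed (3168 and 1503, with medians of 5058 and 13073 UMIs).

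Seurat 5.3.0 (R 4.3.3) gave log normalization, 2000 variable genes without the 53 genes studied, reciprocal PCA integration and Louvain clusters at resolution 1, and DF-like cells were clustered again with 20 components at resolution 0.3. The class of highest marker score named a cluster where at least 3 markers were detected and the score reached 1.0. Where scores lay within 0.25, the class with more markers among the leading 10 genes was taken, which decided the smooth muscle-like and a cortex-like cluster. A cluster stayed unnamed where another class had more markers among the leading 10 genes, or as many with a second score of at least 2.5. It also stayed unnamed where its median depth was under 0.5 of its library's with few of its own markers leading. These limits were set after the clusters were seen, so names may differ from those of the study. The 10 genes, the companion lists and the rule for named genes (all members, the 3 companions of each list with most DF-like UMIs, those past 2-fold, the 3 nearest patterns and Col1a1, Col3a1 and Dcn) were chosen with earlier results of these data known. A gene that this rule names is not reported here.

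Sums, intervals and thinning used numpy 2.4.6, scikit-learn 1.9.0, pandas 2.3.3 and scipy 1.17.1 under Python 3.11.15, and edgeR 4.0.16 gave TMM factors only. The 95% intervals are exact: Poisson for levels, conditional binomial for ratios and Clopper-Pearson for shares. Ratios are CPM of TP over control without a pseudocount, while the 2-fold calls and log2 medians add 1 UMI to each sum. Calls and the median of all genes are among genes whose UMIs in the libraries summed to 50 or more. TMM factors, as TP over control, came to 0.837 for all cells, 0.765 for DF-like and 0.921 for DPC-like cells, and raise a ratio by their inverse. The scripts were checked on simulated counts. The 2 libraries allow no test, and alternatives were run for scaling, measure, depth, filters, doublets, free RNA, clusters and cluster shares.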

Additional observations from a re-analysis of the deposited data

Results flagged for a closer look

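Some genes differed in opposite directions in different cell classes, with intervals of both ratios excluding 1. The difference between classes was not tested, since each group is 1 library. The ratios of TP over control were 1.12 in the 5 fibroblast subclusters, 1.13 in dermal sheath cup-like and 0.458 in DPC-like cells for Fbn1. For Mfap4 they were 0.671 in the fibroblast subclusters together, where the Cthrc1-led cells alone had 1.70 (1.10 to 2.77) and the Angptl7-led cells 0.942 (0.764 to 1.17), and 5.79 in DPC-like cells. The shares of these subclusters differed between the libraries, 18 of 90 control and 66 of 553 TP cells being Angptl7-led. For Fbln2 the ratios were 0.595 in the 5 fibroblast subclusters, 3.42 in DPC-like and 0.605 in endothelial-like cells. With TMM scaling the first was 0.703 (0.610 to 0.814). Over all DF-like cells the log2 ratio of Fbln2 (-0.21) changed sign with TMM (0.18), the mean of ln(counts per 10000 + 1) (0.46), thinning (0.088) and 15% doublets (1.29). Lox had 0.101 in DPC-like and 4.38 in dermal sheath cup-like cells. The 0.101 rests on 15 TP UMIs at a level (1.81 CPM) close to that of inner root sheath-like cells (1.10 CPM) and is no exact fold. The 4.38 rests on 23 and 67 UMIs, in cells where Col1a1 (1944 and 7251 CPM) and Dcn (139 and 389 CPM) were also higher. Fbn2 had 0.819 in DPC-like and 1.54 in dermal sheath cup-like cells. Its log2 ratio in DPC-like cells changed sign with the mean of ln(counts per 10000 + 1) (0.077) and in the Ndnf-led cluster (0.041), so no direction is read from it. Eln had 0.828 in the fibroblast subclusters, 0.670 in DPC-like, 0.794 in dermal sheath cup-like and 2.29 in endothelial-like cells. Its fibroblast value was 0.978 (0.820 to 1.17) with TMM scaling, so it has no direction there, and 7 control cells of the Igfbp2-led subcluster held 45 of the control UMIs. In DPC-like cells its ratio was 1.32 (0.867 to 1.97) in the Ndnf-led and 0.497 in the Adgrb3-led cluster. The fibroblast values rest on 90 control cells, of which the stricter doublet removal left 7.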

How the results depend on the processing

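No paired analysis was possible because each group is 1 library and no test was run. Over all cells, the median log2 ratio of the 10 genes (0.58) was 0.84 with TMM, 0.94 with the mean of ln(counts per 10000 + 1), 0.78 after thinning, 0.40 with a mitochondrial limit of 5%, where Fbln2 (0.89) was no longer 2-fold higher and 3 genes were (6.82% of 16888 genes higher, 10.2% lower), and 1.13 with the inner root sheath-like level taken off. It was 0.17 with control and 0.16 with TP cluster shares, which left 1 and 0 genes at least 2-fold higher (3.26% and 2.93% of all genes), and a 1.5-fold limit gave 5 higher genes and 1 lower, beside 13.5% and 26.4% of all genes. In DF-like cells the median (0.21) was 0.60 with TMM, 0.80 with the ln mean and 0.32 after thinning (1 gene higher, 5.18% of 9265 genes, and 17.9% lower). At 15% doublets it was 1.62 (8 genes higher, 9.21% of 7830 genes), with 7 of 84 control and 376 of 461 TP cells in the fibroblast subclusters. Without the Schwann-like and unnamed subclusters the median was -0.24 (0 higher), beside -0.21 over all genes tested there. The Cthrc1-led subcluster alone gave 1 gene higher and 1 lower, where 4.14% and 9.20% of 6228 genes were. The higher 1 was Fbn2 (0 and 82 UMIs), which reached 50 UMIs only through TP, so it is not counted against that share. Intervals of thinned shares lay apart, toward TP, for 3 genes in DF-like cells (1.86% of 9265 genes), for 10 without thinning (67.3%) and for 1 at 2000 UMIs (1.69%). In DPC-like cells the median over all 10 genes (-0.37, or -0.29 without Mfap5, which had under 50 UMIs) was -0.26 with TMM, -0.036 with the ln mean (1 gene lower, 4.81% of all genes), -0.19 at 15% doublets, -0.20 in the a-led cluster and -0.49 with the unnamed cluster led by Dkk2. It changed sign to 0.089 after thinning, 0.028 with the inner root sheath-like level taken off, 0.074 at resolution 0.5 (1 gene lower, 8.06% of 13033 genes), where sheath cup-like cells joined the class, and 0.24 in the Ndnf-led cluster. So no direction is read from this median, while Fbn1, Lox, Mfap4 and Fbln2 each kept theirs in all of these. For single genes, 33 of 370 values changed sign, of which 31 started from a difference under 2-fold, the furthest being Fbln1 over all cells with the inner root sheath-like level taken off (-0.29 to 3.78). The other 2 were Fbn2 in DF-like cells at 15% doublets (-0.30) and Fbln1 in DPC-like cells with that level taken off (0.48). The settings on single DPC-like clusters, the Dkk2-led cluster, the Cthrc1-led subcluster and no doublet removal (4 genes higher over all cells, 8.37% of 17882 genes, and none lower, 11.7%, median 0.55) were added after the data were seen. The causes were not tested. Levels under about 50 UMIs, as for Mfap5 in DPC-like and most genes in smooth muscle-like and endothelial-like cells, are limited by depth.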
